A study of Mus musculus with 6 samples.

Results

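Muscle cells store quickly usable energy and oxygen with a small set of proteins, and 10 genes for them were examined across the libraries: the creatine kinase genes Ckm, Ckb, Ckmt1 and Ckmt2, the creatine synthesis genes Gatm and Gamt, the creatine transporter gene Slc6a8, the adenylate genes Ampd1 and Ak1, and the myoglobin gene Mb. All 10 were found by symbol among the 43074 rows of the count table, and 8 of them passed the filter on low counts that left 17433 genes for testing. The libraries came from C2C12, a wild-type mouse myoblast line derived from skeletal muscle, which fuses into myotubes when the serum is changed. The 3 groups, of 2 libraries each, were untreated cells at day 0, cells given differentiation medium and DMSO for 4 days, and cells given that medium and 1 mM 4-phenylbutyric acid (4-PBA) for the same time. The growth medium held 10% fetal bovine serum and the differentiation medium 5% horse serum, and all libraries carried batch number 1. Nothing in the labels tells separate cultures from repeat libraries of 1 culture, so the tests measure the spread between these libraries, which may be technical. A cell line without nerve or load is a limited model of muscle fibres.

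Creatine kinases move a phosphate group between ATP and creatine, so that phosphocreatine can refill ATP where it is used. Cytosolic muscle-type (Ckm) and brain-type (Ckb) subunits form dimers, while Ckmt1 and Ckmt2 encode the ubiquitous and the sarcomeric enzymes of mitochondria. Gatm and Gamt make creatine and Slc6a8 takes it up. Ak1 encodes adenylate kinase, which recovers ATP from ADP, Ampd1 encodes the muscle AMP deaminase, and Mb encodes the oxygen-binding protein of muscle.

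Total counts ranged from 47908926 to 74697397 per library, and the replicates of every group differed by more than sampling noise. Values are normalised read counts relative to the scaled library total (CPM), and the log2 fold changes come from edgeR's quasi-likelihood test, with Benjamini-Hochberg adjustment over all 17433 genes and a call at an adjusted p under 0.05. The myotube markers Myog and Myh3 stood at 7.85 to 7.94 and 18.7 to 19.1 CPM at day 0, and at 277 to 297 and 1949 to 2084 CPM over the 4 day 4 libraries. The proliferation marker Mki67 stood at 411 and 412 CPM at day 0 and at 129 to 162 CPM at day 4. Markers of other cell types were low: the 3 neuron markers, relevant to a brain-type gene, summed to 0.306 to 0.606 CPM in any library, and the 4 adipocyte markers to at most 0.411 CPM. The 3 leukocyte markers summed to 5.43 to 5.70 CPM at day 0 and 1.38 to 2.49 CPM at day 4, nearly all from Cd68, and their part in the changes from day 0 was not tested. The 2 cardiac markers summed to at most 0.165 CPM at day 0 and to 7.004 to 10.51 CPM at day 4, mainly from Myh6.

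The sequences before the start of Ckm, Mb and Ckb are shown because the first 2 genes had by far the largest changes among the 10 and because Ckb was the creatine kinase already abundant in myoblasts. Each is the 250 bases before a transcription start of the RefSeq table for GRCm38.p6, 5′ to 3′ on the gene's strand, with the E-box letters CANNTG in capitals. MyoD and myogenin are known to bind E-boxes. These coordinates are not on the build of the counts, which is GRCm39 per the submitters' processing notes. The windows are chr7:19410844-19411093 on the plus strand for Ckm, chr15:77022788-77023037 on the minus strand for Mb and chr12:111672339-111672588 on the minus strand for Ckb. Mb has 3 listed starts, and the window precedes the more upstream of the 2 neighbouring ones.
Ckm: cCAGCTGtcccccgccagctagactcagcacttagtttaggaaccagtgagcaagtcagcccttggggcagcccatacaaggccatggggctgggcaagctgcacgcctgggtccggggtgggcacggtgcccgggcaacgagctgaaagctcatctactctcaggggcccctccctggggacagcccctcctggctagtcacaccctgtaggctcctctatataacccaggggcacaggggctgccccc
Mb: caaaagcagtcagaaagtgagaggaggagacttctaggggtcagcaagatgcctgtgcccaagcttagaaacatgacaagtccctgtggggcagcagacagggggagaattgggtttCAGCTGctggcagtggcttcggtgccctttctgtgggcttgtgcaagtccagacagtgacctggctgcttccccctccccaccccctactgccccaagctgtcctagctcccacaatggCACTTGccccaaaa
Ckb: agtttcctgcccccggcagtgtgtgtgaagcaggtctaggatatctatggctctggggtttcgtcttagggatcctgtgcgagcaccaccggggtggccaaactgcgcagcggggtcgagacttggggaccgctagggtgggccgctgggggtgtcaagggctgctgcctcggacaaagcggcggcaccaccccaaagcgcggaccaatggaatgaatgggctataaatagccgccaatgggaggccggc

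The window of Ckm held 1 CANNTG, that of Mb 2 and that of Ckb 0. CANNTG, which reads the same on both strands, was present in 66.2% of all 32851 windows of this length in the table. The narrower CAGCTG, a subset of it, was present in 4271 of the 32851 windows and in those shown for Ckm and Mb. Of the other windows it was present in that of Ckmt2, in 2 of the 4 of Ak1 and in 1 more of Mb. The latter overlaps the Mb window shown and holds the same site. A match to the MEF2 consensus, found in 1.69% of all windows on either strand, was present in the Ckb window only among the 14 windows of the 8 genes listed (all but Slc6a8 and Ampd1). It overlapped a TATAAA, which 12.4% of all windows held. The half-site AAGGTCA of oestrogen-related receptors, in 4.08% of all windows, was found in 1 of the 4 windows of Ak1 and 1 of the 2 windows of Ckmt1. These matches describe letters in the windows and not bound sites.

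Setting the DMSO libraries against day 0 compared cells after 4 days in differentiation medium with DMSO to untreated cells of day 0. DMSO, medium and time changed together and cannot be told apart here. Ckm rose 124-fold and Mb 116-fold from low levels, Ckb rose 2.65-fold from an already high level, creatine synthesis genes and Ak1 rose less, and the transporter Slc6a8 fell. Of the 8 genes tested, 7 were called higher and 1 lower, where 33.8% of all tested genes were called higher and 32.6% lower (66.3% called in all). The libraries of both groups did not overlap for any of the 8, where 81.9% of all tested genes had no overlap. Ampd1 passed the low-count filter only through its day 4 libraries, so its call adds nothing to these counts. The median log2 fold change of the other 7 was 0.90, against 0.02 for all tested genes. As the members were chosen with earlier results of these data known, this median and the counts of calls describe them and test nothing. In bulk RNA a higher share of myotube nuclei and more RNA per nucleus cannot be told apart.

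Ckm stood at 1.44 and 0.470 CPM at day 0, at 104 and 112 CPM in the DMSO libraries and at 97.5 and 94.5 CPM with 4-PBA. Every day 4 library lay far above both day 0 libraries. The rise with DMSO was 124-fold, a log2 fold change of 6.95 (SE 0.281, edgeR adjusted p 1.61e-04), the 61st largest rise of the 17433 genes. The day 0 libraries were 3.06-fold apart, at 70 and 33 counts, with 95% exact Poisson intervals of 1.12 to 1.82 and 0.323 to 0.660 CPM that do not meet and cover counting error only. The size of the rise therefore depended on the day 0 library, at 7.83 without day 0 replicate 1 and 6.23 without day 0 replicate 2.

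Ckb stood at 104 and 98.4 CPM at day 0, at 269 and 268 CPM in the DMSO libraries and at 277 and 282 CPM with 4-PBA. It was thus present in dividing myoblasts and higher still in all 4 day 4 libraries. Its log2 fold change with DMSO was 1.41 (SE 0.0337, edgeR adjusted p 1.94e-28). Neuron markers were near 0 in the same libraries, as given above.

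The mitochondrial creatine kinase genes were close to absent. Ckmt1, the ubiquitous form, had 0 counts in all day 0 and DMSO libraries and 2 in each 4-PBA library. A count of 0 allows up to 3 counts as a one-sided 95% limit for counting error, or 0.0404 to 0.0617 CPM in those 4 libraries. Ckmt2, the sarcomeric form, had 0 and 2 counts at day 0, 3 and 4 in the DMSO libraries, and 8 and 4 with 4-PBA. Both failed the filter and were not tested, and no fold is given for counts this low.

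To compare levels between genes, CPM was divided by transcript length in kb. On this scale Ckb made up 99.3% and 99.7% of the summed level of the 4 creatine kinase genes at day 0, 82.8% and 81.7% in the DMSO libraries, and 84.1% and 84.7% with 4-PBA. Ckm made up nearly all of the rest, at 0.496% ± 0.340 (SD, n = 2) at day 0, 17.7% ± 0.795 in the DMSO libraries and 15.6% ± 0.465 with 4-PBA. So Ckb remained the major creatine kinase transcript in every library while the Ckm share was higher in every day 4 library than at day 0. The summed level was 69.2 ± 3.004 CPM per kb at day 0, 222 ± 1.51 in the DMSO libraries and 225 ± 1.82 with 4-PBA. These shares depend on the length taken for Ckm, which is 2.742 kb for the longest principal transcript of GENCODE M21 and 1.235 kb for the shortest one of the basic set. With the shortest lengths the Ckm share was 32.4% with DMSO and 29.0% with 4-PBA, and Ckb was still 2.01 to 2.505 times as high as Ckm in the day 4 libraries. These shares were not tested.

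**Figure D1:**
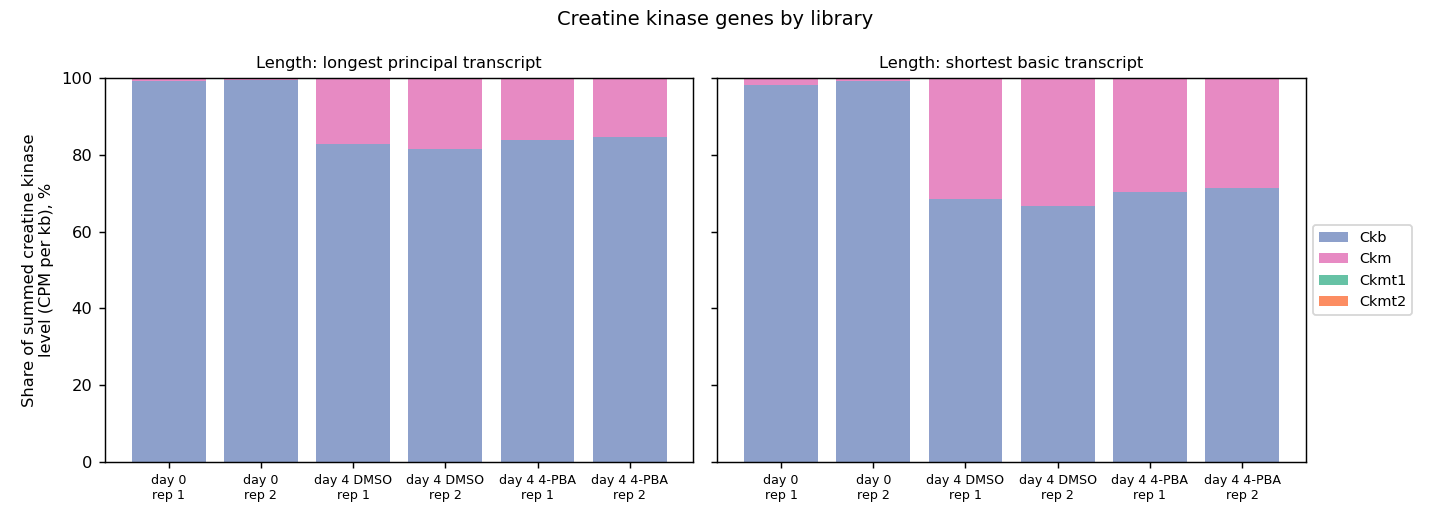
Share of each creatine kinase gene in their summed level (y axis, percent of CPM per kb) in each of the 6 libraries (x axis), with the longest principal transcript as length on the left and the shortest basic transcript on the right. Ckb holds over 80% of each bar on the left, and the Ckm share is 0.737% and 0.256% at day 0 against 15.2% to 18.3% at day 4.

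Mb stood at 1.23 and 1.32 CPM at day 0, at 143 and 156 CPM in the DMSO libraries and at 143 and 149 CPM with 4-PBA. All 4 day 4 libraries were high, and the DMSO and 4-PBA libraries overlapped. The rise with DMSO was 116-fold, a log2 fold change of 6.86 (SE 0.0709, edgeR adjusted p 2.42e-37), the 68th largest of all tested genes. Unlike Ckm, Mb had close replicates at day 0, where 60 and 93 counts were 1.07-fold apart. Exons of Mb overlap the opposite-strand genes Apol6 and Gm49540 in GENCODE M21, and whether counting used strand is not given in the sources used here. Apol6 had 106 to 193 counts and Gm49540 at most 9 in any library, beside 60 to 11579 for Mb, so the day 0 level of Mb is uncertain to that extent. Exons of Ckm overlap A930016O22Rik on the opposite strand, which had 3 and 1 counts at day 0 and at most 13 in any library.

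The creatine synthesis genes rose moderately. Gamt, which encodes the methyltransferase of the final step, stood at 19.4 and 19.0 CPM at day 0, 34.4 and 37.3 CPM in the DMSO libraries and 35.7 and 35.5 CPM with 4-PBA. Gatm, which encodes the amidinotransferase of the first step, stood at 204 and 207 CPM at day 0, 265 and 277 CPM in the DMSO libraries and 274 and 270.5 CPM with 4-PBA. For both genes the day 4 libraries lay above day 0 and the 2 treatments overlapped. With DMSO the log2 fold change was 0.90 (SE 0.0615, edgeR adjusted p 3.11e-15) for Gamt and 0.40 (SE 0.0316, edgeR adjusted p 1.56e-13) for Gatm.

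Slc6a8, the creatine transporter, was the only one of the 8 to fall. It stood at 134.4 and 133.8 CPM at day 0, 99.3 and 99.2 CPM in the DMSO libraries and 97.8 and 95.2 CPM with 4-PBA, so that all day 4 libraries lay below both day 0 libraries. With DMSO it fell by 0.43 on the log2 scale (SE 0.0358, edgeR adjusted p 5.27e-13). Genes for making creatine thus rose while the gene for taking it up fell.

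Of the adenylate genes, Ak1 stood at 114 and 111 CPM at day 0, 145 and 150.5 CPM in the DMSO libraries and 138.6 and 138.7 CPM with 4-PBA. Its log2 fold change with DMSO was 0.40 (SE 0.0348, edgeR adjusted p 2.64e-12). Ampd1 was rare throughout, with 4 and 14 counts at day 0, 64 and 30 in the DMSO libraries and 34 and 20 with 4-PBA, or 0.0823 to 1.01 CPM. The group means were higher at day 4, but the DMSO libraries were 2.51-fold apart. The log2 fold change with DMSO was 2.23 (SE 0.542, edgeR adjusted p 5.43e-04), and without DMSO replicate 1 it was 1.44 and no longer called (edgeR adjusted p 0.0602). It was 3.06 without day 0 replicate 2, 2.75 without DMSO replicate 2 and 1.80 without day 0 replicate 1.

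**Figure D2:**
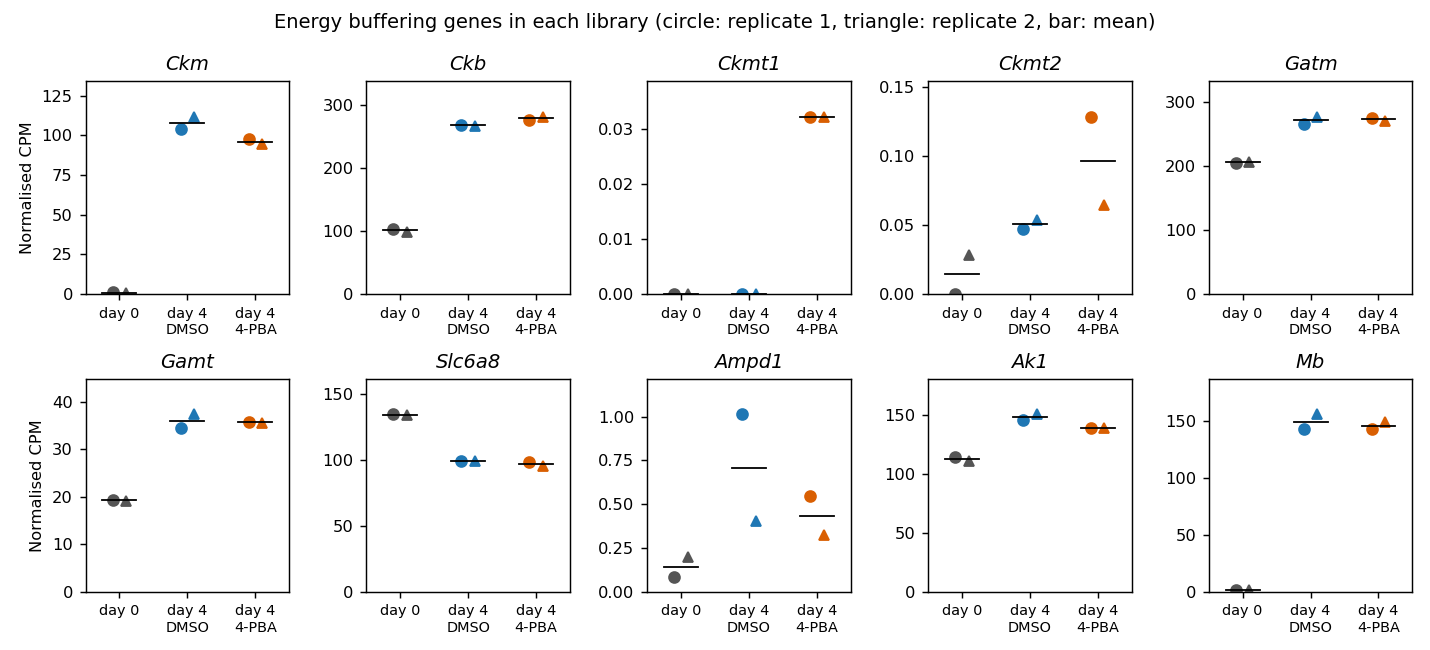
Normalised CPM (y axis, from 0, a scale for each gene) of the 10 genes in the 2 libraries of each group (x axis), with circles for replicate 1, triangles for replicate 2 and bars for means. Ckm and Mb leave near-0 day 0 levels, Ckb, Gatm, Gamt and Ak1 rise from levels already present, Slc6a8 falls, and Ckmt1, Ckmt2 and Ampd1 stay at or below 1.01 CPM.

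Per kb of transcript, Gatm led at day 0 with 85.8 ± 0.851 CPM per kb (SD, n = 2), followed by Ckb at 68.8 ± 2.77, Ak1 at 53.9 ± 1.04, Slc6a8 at 40.5 ± 0.131 and Gamt at 19.4 ± 0.287. Mb (1.16 ± 0.0577) and Ckm (0.348 ± 0.250) stood far below them. With DMSO the order was Ckb at 182 ± 0.524, Mb at 135 ± 8.51, Gatm at 113 ± 3.53, Ak1 at 70.9 ± 1.75, Ckm at 39.3 ± 2.03, Gamt at 36.3 ± 2.11 and Slc6a8 at 29.9 ± 0.0158. Mb thus moved from the 6th to the 2nd place. Ckm and Gamt lay close to each other, with Ckm higher in each DMSO library (37.9 and 40.8 against 34.8 and 37.8) and lower in each 4-PBA library (35.6 and 34.5 against 36.2 and 35.9). That switch is absent with the shortest basic transcripts, where mean Ckm lay well above Gamt with DMSO (87.3 against 36.6) and with 4-PBA (77.8 against 36.4). The order among neighbours depends on the transcript lengths: with the shortest basic transcripts Mb (272 ± 17.1) stood above Ckb (182 ± 0.524) and Ckm (87.3 ± 4.51) above Ak1 (72.7 ± 1.79) with DMSO, and at day 0 Slc6a8 (62.3 ± 0.201) stood above Ak1 (55.3 ± 1.07). Ampd1 and the mitochondrial creatine kinases were last at both lengths.

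Setting the 4-PBA libraries against day 0 used the same day 0 libraries as above. The same 7 genes were called higher and Slc6a8 lower, where 33.2% of all tested genes were called higher and 32.4% lower (65.6% called in all). Ampd1 is 1 of the 7 and passed the low-count filter only through its day 4 libraries, so its call adds nothing to these counts. Without it, 6 of 7 tested genes were called higher and 1 lower. Their median log2 fold change was 0.89, against 0.02 for all tested genes. The choice of members limits these numbers as in the comparison with DMSO. None of the 8 had overlapping libraries, where 81.8% of all tested genes had none. The log2 fold change was 6.78 (SE 0.284) for Ckm and 6.82 (SE 0.0711) for Mb. The value of Ckm was 7.67 without day 0 replicate 1 and 6.06 without day 0 replicate 2. The log2 fold change was 1.47 (SE 0.0337) for Ckb, 0.89 (SE 0.0619) for Gamt, 0.41 (SE 0.0316) for Gatm and 0.30 (SE 0.0350) for Ak1, and Slc6a8 fell by 0.47 (SE 0.0360) on the log2 scale. Ampd1 had 1.54 (SE 0.569, edgeR adjusted p 0.0182), a call lost without day 0 replicate 1 (1.11, edgeR adjusted p 0.135), without 4-PBA replicate 1 (1.11, edgeR adjusted p 0.179) and under the DESeq2 Wald test (1.58, adjusted p 0.0589). Without day 0 replicate 2 it was 2.38.

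The 4-PBA and DMSO libraries of day 4 were compared to measure the effect of the drug after equal time in differentiation medium. edgeR called 0 of the 8 tested genes, where 4.90% of all tested genes were called (2.13% higher and 2.78% lower). The DESeq2 Wald test also called 0, and 1 gene, Ak1, had an unadjusted edgeR p under 0.05. The median log2 fold change was -0.04, against 0.00 for all tested genes. The libraries of the 2 groups did not overlap for 4 genes, namely Ckm, Ckb, Slc6a8 and Ak1, where 45.5% of all tested genes had no overlap.

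The myotube markers did not all stand level between the 2 treatments. Their summed level was 6895 to 7225 CPM in the DMSO libraries and 6413 to 6538 CPM in the 4-PBA libraries. Of the 5, 3 were called lower, where 2.78% of all tested genes were. Ttn, for titin, stood at 2614 and 2690 CPM with DMSO against 2175 and 2206 CPM (log2 fold change -0.28, edgeR adjusted p 1.31e-08), and was called under every alternative run. Mymk, for the fusion protein myomaker, had -0.17 (edgeR adjusted p 0.0134). That call was lost without DMSO replicate 2 (-0.094, edgeR adjusted p 0.0916), without 4-PBA replicate 1 (edgeR adjusted p 0.142) and without 4-PBA replicate 2 (edgeR adjusted p 0.0930). Acta1, for skeletal actin, had -0.094 (edgeR adjusted p 0.0451), and its adjusted p was between 4.94e-04 and 0.461 over the alternatives, with the call lost under 10 of 14, among them when either day 0 library, either 4-PBA library or DMSO replicate 2 was left out. Myog and Myh3 were not called (0.0052 and 0.02, edgeR adjusted p 0.972 and 0.838). The difference was not confined to the myotube markers. Of the myoblast markers Des was called lower (-0.11, edgeR adjusted p 0.0088), while Myod1, Myf5 and Vim were not called. The cardiac marker Myh6 was also called lower (-0.48, edgeR adjusted p 0.0082). Des and Myh6 were read under the main settings only. The part of these markers in the values of Ckm and Ak1 that follow was not tested.

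Both 4-PBA libraries of Ckm (97.5 and 94.5 CPM) lay below both DMSO libraries (104 and 112 CPM). The log2 fold change was -0.17 (SE 0.152, edgeR adjusted p 0.719), with an interval of 2 SE on either side from -0.47 to 0.14. The SE of this day 4 comparison included the gap between the day 0 libraries of Ckm, since all 6 libraries shared 1 estimate of spread per gene. Ckm had 0.296 prior degrees of freedom in the robust fit, against a median of 30.3, and 29 of the 17433 genes had fewer. In a fit of only the 4 day 4 libraries the log2 fold change was again -0.17 but its SE was 0.0415 and the edgeR adjusted p 0.0140. Leaving out day 0 replicate 1 or 2 gave the same value with an SE of 0.0437 or 0.0435 and an edgeR adjusted p of 0.0233 or 0.0205, and over all alternatives the adjusted p reached 0.951. The size depended on the DMSO libraries as well, at -0.22 when DMSO replicate 1 was left out and -0.11 when replicate 2 was.

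**Figure D3:**
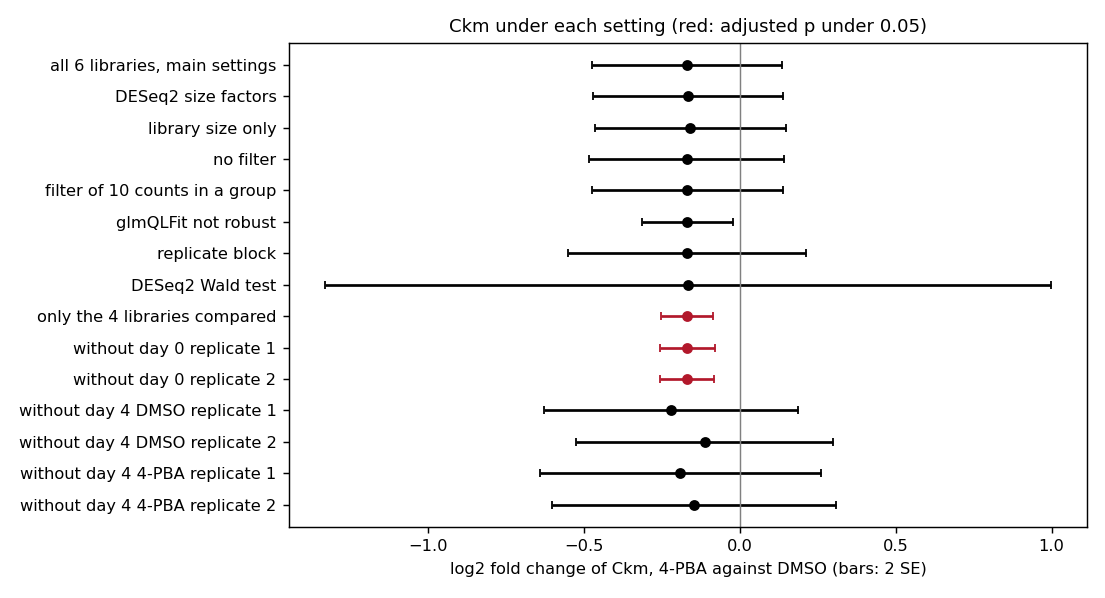
Log2 fold change of Ckm between 4-PBA and DMSO (x axis, bars of 2 SE) under each setting (y axis), red where the adjusted p was under 0.05. The value stays between -0.22 and -0.11, and the bars are short in the 3 settings that drop 1 or both day 0 libraries.

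Ckb stood higher in both 4-PBA libraries, at 277 and 282 CPM with 4-PBA against 269 and 268 CPM in the DMSO libraries, without a call (log2 fold change 0.06, SE 0.0323, interval -0.0059 to 0.12, edgeR adjusted p 0.376). Per kb, Ckb was 5.29 and 5.56 times as high as Ckm in the 4-PBA libraries and 4.82 and 4.46 times in the DMSO libraries. The ratios of the 2 groups had to lie apart, since both genes had no overlap and moved in opposite directions. These ratios therefore add nothing to the values of the 2 genes, neither of which was called with all 6 libraries. Ak1, at 138.6 and 138.7 CPM against 145 and 150.5 CPM, had a log2 fold change of -0.094 (SE 0.0345, unadjusted p 0.0104, edgeR adjusted p 0.120). It was called without DMSO replicate 1 (-0.12, edgeR adjusted p 0.0307), and over the other alternatives the adjusted p reached 0.429.

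Mb had a log2 fold change of -0.03 between 4-PBA and DMSO (interval -0.11 to 0.046, edgeR adjusted p 0.766) and Slc6a8 one of -0.04 (-0.11 to 0.032, edgeR adjusted p 0.657). Gatm had 0.0080 (-0.055 to 0.071, edgeR adjusted p 0.942) and Gamt -0.01 (-0.13 to 0.11, edgeR adjusted p 0.957). The intervals of these 4 genes lay between -0.13 and 0.11. The direction of Mb, Gatm and Gamt turned when single libraries were left out. Ampd1 had -0.69 with an interval from -1.62 to 0.24 (edgeR adjusted p 0.508), and 0.10 without DMSO replicate 1, and its 20 to 64 counts limit the precision.

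**Figure D4:**
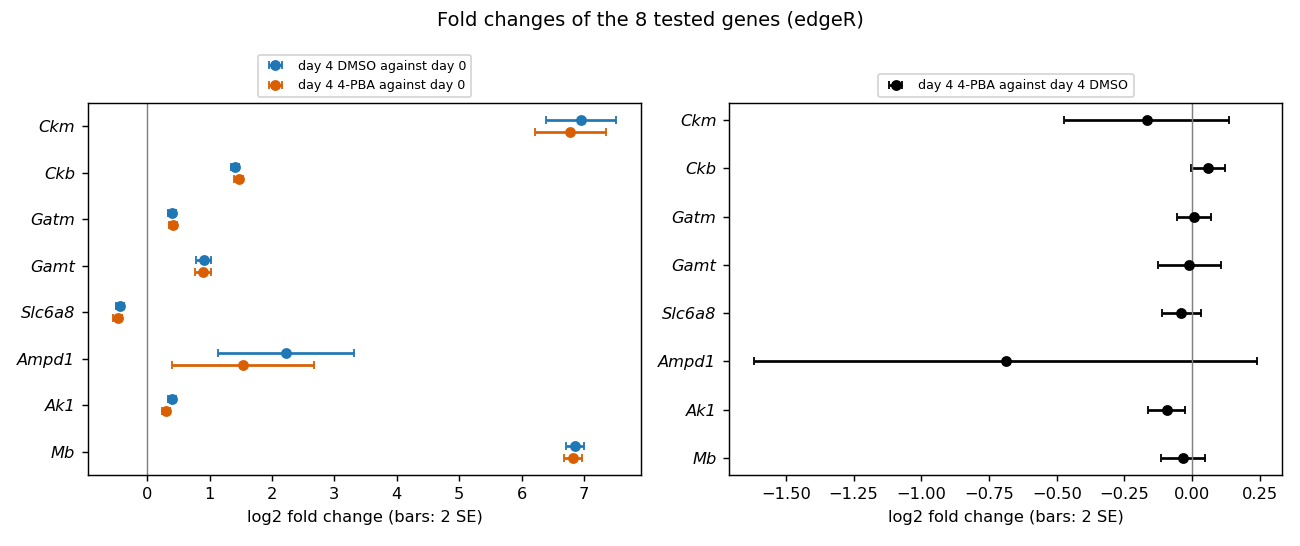
Log2 fold changes (x axis, bars of 2 SE) of the 8 tested genes (y axis) at day 4 against day 0 on the left and for 4-PBA against DMSO on the right, on different x scales. On the left only Slc6a8 lies below 0. On the right every bar but that of Ak1 crosses 0, and those of Ckm and Ampd1 are the widest.

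Other genes of adenylate metabolism, oxygen binding and their regulators were read from a list of 54 symbols, of which 52 were in the table and 46 were tested. With DMSO against day 0, 13 were called higher and 25 lower, where 33.8% and 32.6% of all tested genes were. Their median log2 fold change was -0.23, against 0.02 for all tested genes. This list too was chosen with earlier results of these data known. Genes called higher included regulators and a kinase subunit. Prkag3, a muscle gamma subunit of the AMP-activated kinase, stood at 0.658 and 0.926 CPM at day 0 and 36.7 and 37.9 CPM with DMSO (log2 fold change 5.51, SE 0.108, edgeR adjusted p 6.01e-31). The transcription factor genes Mef2c (3.21, SE 0.0601, edgeR adjusted p 1.45e-31) and Mef2d (0.73, SE 0.0313, edgeR adjusted p 7.20e-21) also rose, Mef2c from 7.47 and 7.52 to 68.6 and 70.6 CPM.

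Genes called lower included enzymes of nucleotide metabolism. Nme1, a nucleoside diphosphate kinase, fell by 1.32 on the log2 scale (SE 0.0421, edgeR adjusted p 9.14e-25), from 116 and 117 to 46.5 and 46.8 CPM. Aprt, which salvages adenine, fell by 1.503 (SE 0.0483, edgeR adjusted p 1.23e-24), from 102 and 111 to 38.3 and 36.9 CPM. All 5 tested genes of adenine nucleotide exchange (Slc25a4, Slc25a5, Vdac1, Vdac2 and Vdac3) were called lower, where 32.6% of all tested genes were called lower and 33.8% higher. Also called lower were 6 of the 8 genes of AMP breakdown and salvage and 4 of the 7 AMP-activated kinase subunits, of which the other 3 were called higher. Among the purine nucleotide cycle genes 2 of 5 were called higher and 3 lower, and among the adenylate kinases other than Ak1 2 of 7 higher and 3 lower. Of the 8 regulators 5 were called higher and 1 lower, and of the 2 other globins 0 were called. Of the 4 nucleoside diphosphate kinases 3 were called lower. Mki67 fell in the same libraries, and its part in these falls was not tested. With 4-PBA against day 0, 15 of the 46 were called higher and 26 lower, where 33.2% and 32.4% of all tested genes were. The 15 include Cygb, which passed the low-count filter only through its day 4 libraries, so its call adds nothing to the count. Prkag3, Mef2c, Mef2d, Nme1 and Aprt kept their direction and call.

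Between 4-PBA and DMSO, 1 of the 46 genes was called, where 4.90% of all tested genes were. Adssl1, the muscle adenylosuccinate synthase that feeds the purine nucleotide cycle together with Ampd1, stood at 27.3 and 26.5 CPM at day 0, 50.8 and 56.5 CPM in the DMSO libraries and 44.6 and 49.2 CPM with 4-PBA. It was lower with 4-PBA in both libraries, with a log2 fold change of -0.19 (SE 0.0553, edgeR adjusted p 0.0338). The call was lost without DMSO replicate 2 (-0.11, edgeR adjusted p 0.328), without 4-PBA replicate 1 (-0.12, edgeR adjusted p 0.487), without day 0 replicate 1 or 2 (edgeR adjusted p 0.0608 and 0.0554), with a non-robust fit (edgeR adjusted p 0.0593) and under the DESeq2 Wald test (adjusted p 0.114). Without DMSO replicate 1 it was -0.27 (edgeR adjusted p 2.84e-04).

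**Figure D5:**
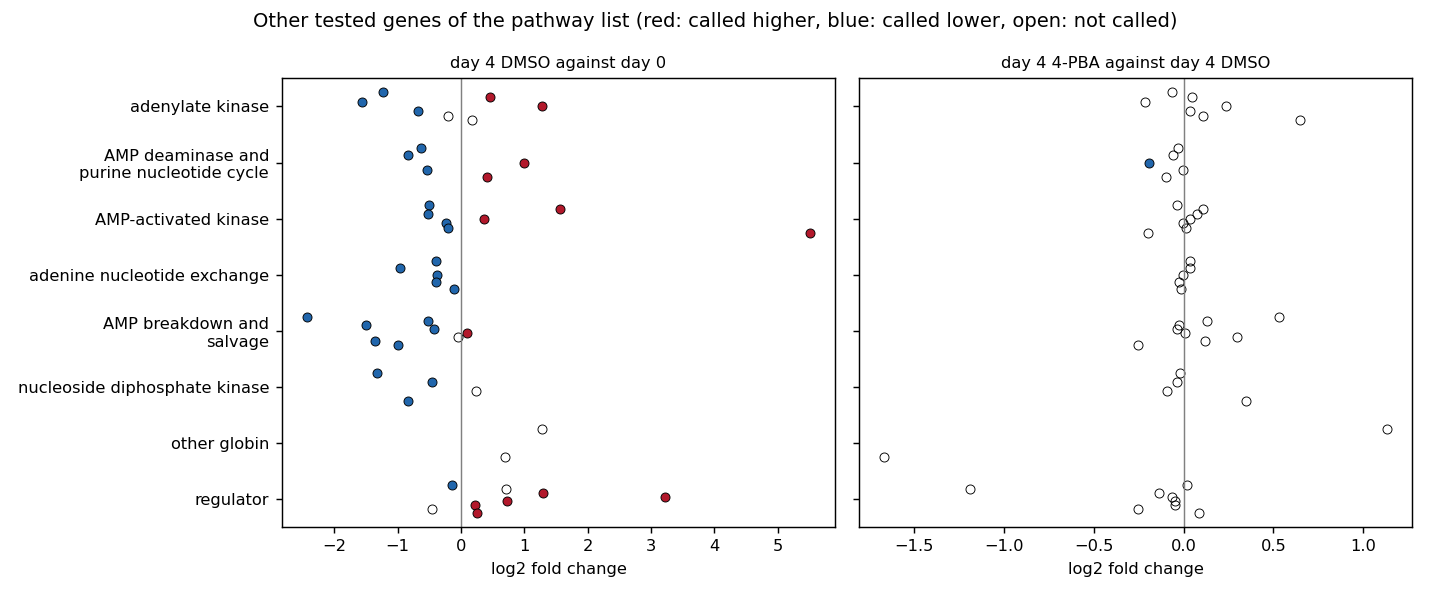
Log2 fold changes (x axis) of the other tested genes of the list by role (y axis), DMSO against day 0 on the left and 4-PBA against DMSO on the right, red for called higher, blue for called lower and open for not called. On the left 13 points are red and 25 blue, with Prkag3 furthest to the right at 5.51. On the right 1 point, Adssl1, is filled.

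The genes whose pattern over the 6 libraries lay nearest to each of 4 genes were found by the Euclidean distance of centred log2 CPM, among 10674 other genes with a mean of at least 5 CPM. This is a description without a test, over libraries that fall into day 0 and day 4. Mb lay nearest to Myh3, an embryonic myosin heavy chain (distance 0.136), then to Abra (0.314) and Myl4 (0.320). Mb stood at 6.47% and 7.10% of the CPM of Myh3 at day 0 and at 7.10% to 7.49% in the 4 day 4 libraries. Ckm stood at 7.54% and 2.52% of Myh3 at day 0 and at 4.56% to 5.36% at day 4. Since Myh3 was the gene nearest to Mb in these same libraries, a steadier ratio for Mb than for Ckm follows from that and adds nothing. Ckb lay nearest to Zfp651 (0.0318), Rundc3a (0.0647) and Tgfb3 (0.0660), and Ckm to Adamtsl2 (0.550), Adamts16 (0.567) and Ankrd2 (0.802). For the rare Ampd1 the nearest were Gm56883 (0.949), Egr2 (1.12) and 4833422C13Rik (1.15), far more distant than for Mb or Ckb.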

How the data were processed

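The deposited table holds raw counts per gene symbol from the authors, 1 column per library, neither normalised nor pooled. Per the labels' protocols, libraries were made with a directional kit from 100 ng of total RNA after DNase treatment. Reads were processed on GRCm39 per the submitters' processing notes. The aligner, counter and strand setting are not given in the sources used here.

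Counts were analysed with edgeR 4.0.16 (filterByExpr by group, TMM, 1 mean per group over all 6 libraries, estimateDisp, robust glmQLFit, 3 residual degrees of freedom). The SE is the log2 fold change divided by the square root of F. Alternatives were DESeq2 1.42.0, other scalings and filters, a non-robust fit, a replicate block, a 2-fold minimum, fits of the 4 libraries compared, and leaving out each library. Transcript lengths and exon overlaps came from GENCODE M21 (GRCm38), and the shortest basic transcript length was added after seeing the data. The method was also run on simulated counts, with known changes between 4-PBA and DMSO only. Their spread followed the trend over all genes, so that run does not cover genes of unusual spread such as Ckm. The members and lists were chosen with earlier results of these data known. Named pathway genes were the 3 called higher and the 3 called lower with the smallest adjusted p in each comparison, of which 1 is not reported here, and nearest genes were the 3 closest with a mean of at least 5 CPM for Ckm, Ckb, Ampd1 and Mb. That rule also covered Ckmt2, which was not tested. The 4-PBA differences of the markers Ttn, Mymk, Acta1, Des and Myh6 were described after their values were seen. Promoter windows came from RefSeq (GRCm38.p6), for 8 of the 10 genes. Figures were drawn with matplotlib 3.10.9.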

Additional observations from a re-analysis of the deposited data

Results flagged for a closer look

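Adssl1 was called lower with 4-PBA than with DMSO at day 4 (difference of -0.19 on the log2 scale, edgeR adjusted p 0.0338, lower in both 4-PBA libraries). As both treatments share the day 0 libraries, this is the comparison given above and not a separate result. It was the 1 call among 46 genes, where 4.90% of all tested genes were called. The libraries and settings without which this call was lost are given with its values above.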

How the results depend on the processing

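Between day 4 and day 0 the 8 tested genes kept their direction under the 14 alternatives with a fold change, and the calls lost among them were those of Ampd1 given above. With a 2-fold minimum 4 of the 8 genes were called in both comparisons with day 0, and 11 (DMSO) and 13 (4-PBA) pathway genes. The 4 include Ampd1 and the 13 include Cygb, which both passed the low-count filter only through their day 4 libraries. The share of all tested genes called was counted under the main settings only. The counts in this section therefore have no such share beside them and are not read against all genes. Between 4-PBA and DMSO the count of called members was 1 (Ckm) in the fit of 4 libraries and 0 to 1 when single libraries were left out. Pathway counts there were 3 without a filter, 2 in the fit of 4 libraries, 0 with a non-robust fit, DESeq2 or a 2-fold minimum, and 0 to 3 when single libraries were left out. Leaving out single libraries moved the 4-PBA difference of Gatm between -0.024 and 0.041, Gamt between -0.069 and 0.052, Mb between -0.097 and 0.034, Myog between -0.045 and 0.058, Myh3 between -0.030 and 0.069 and Ampd1 between -1.22 and 0.10. Replicate numbers showed no sign of pairing the libraries (correlations of replicate differences between groups -0.028 to -0.0031), which does not exclude a pairing. With the replicate as a block, 8, 0 and 8 members and 37, 1 and 41 pathway genes were called for DMSO against day 0, 4-PBA against DMSO and 4-PBA against day 0, and the Acta1 call was lost (edgeR adjusted p 0.0871). The Ckm share was 0.919%, 28.7% and 25.6% at day 0, with DMSO and with 4-PBA without division by length, and 1.09%, 32.4% and 29.0% with the shortest lengths. Depth limits Ampd1, Ckmt1 and Ckmt2.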

Other observations

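The gap between the day 0 libraries of Ckm was unusual for its count. Of 2142 tested genes with a mean day 0 count within 2-fold of its 51.5, 6, Ckm included, had replicates as far apart, and the median gap was 0.30 on the log2 scale against 1.60 for Ckm. The 5 myotube markers were close at day 0: Myog stood at 7.94 and 7.85 CPM, Myh3 at 19.1 and 18.7, Mymk at 14.2 and 13.1, Acta1 at 39.1 and 37.3 and Ttn at 212 and 210.3. The 2 genes nearest to Ckm in pattern, Adamtsl2 (32 and 16 counts at day 0) and Adamts16 (27 and 14 counts), also had more counts in replicate 1, which the distance takes into account. The next nearest, Ankrd2, had 30 and 31 counts.

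The 2 other globin genes were rare and were singled out after their values were seen. Cygb, for cytoglobin, had 4 and 4 counts at day 0, 11 and 12 in the DMSO libraries and 30 and 16 in the 4-PBA libraries. It passed the low-count filter only through its day 4 libraries, so its call with 4-PBA against day 0, counted above, adds nothing. Ngb, for neuroglobin, had 7 and 16 counts at day 0, 26 and 16 in the DMSO libraries and 8 and 4 in the 4-PBA libraries. Ngb reached the filter's level of 0.159 CPM in both DMSO libraries (0.412 and 0.216 CPM) and 1 day 0 library. It did so in neither 4-PBA library (0.129 and 0.0644 CPM), so the filter favoured a lower value with 4-PBA and its fold change adds no support. Between 4-PBA and DMSO neither was called, with log2 fold changes of 1.13 for Cygb (SE 0.590, edgeR adjusted p 0.338) and -1.67 for Ngb (SE 0.667, edgeR adjusted p 0.169).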
